A study of Mus musculus with 9 samples.

Results

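The chemokines Cxcl9 and Cxcl10 and 8 GTPases induced by interferon gamma, namely Gbp2, Gbp3, Gbp7, Igtp, Irgm1, Irgm2, Iigp1 and Tgtp2, were followed in mouse intestine after irradiation of the abdomen, with and without lycopene, a carotenoid of tomato. They are the rows of the deposited table of gene levels that carry these 10 symbols, of 54532 genes in all. Levels are FPKM, fragment counts scaled by gene length and library size, and can therefore be compared between genes. All 10 genes were above 1 FPKM in each of the 9 libraries, so none owed its place among the 15391 genes tested to a single group. Total RNA was sequenced in 3 libraries of each of 3 groups. IR+LYC mice were irradiated and were gavaged for 10 days with lycopene in corn oil at 10 mg/kg per day. IR mice were irradiated and received corn oil alone, and control mice received corn oil alone without irradiation, so corn oil was common to all 3 groups. The dose in both irradiated groups was 12 Gy to the whole abdomen on day 4. Mice with lycopene and no irradiation, a further group of the study, were not analysed here. The labels name the tissue only as intestine and give no gut segment, strain, sex or age.

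Interferon gamma is made mainly by T cells and natural killer (NK) cells. It binds the receptor formed by Ifngr1 and Ifngr2, and the kinases Jak1 and Jak2 then pass on a signal that reaches GAS elements, the gamma activated sites of promoters. Irf1, which the pathway also induces, binds the interferon-stimulated response element, ISRE. Among the products of this pathway, Cxcl9 and Cxcl10 attract activated T and NK cells through the receptor Cxcr3, while the guanylate binding proteins (Gbp) and the immunity related GTPases (Igtp, Irgm1, Irgm2, Iigp1 and Tgtp2) act inside cells against parasites and bacteria that live in vacuoles. In the intestine the pathway is known from infection and from inflammation of the mucosa, and epithelial cells, macrophages and stromal cells can all respond to it.

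The genes lie in a few clusters. Cxcl9 (chr5:92321347-92328079) and Cxcl10 (chr5:92346638-92348889) are neighbours on the minus strand. Gbp7 (chr3:142530342-142550149), Gbp3 (chr3:142560026-142573209) and Gbp2 (chr3:142620602-142638008) follow each other on the plus strand. Irgm1 (chr11:48861968-48871683) and Tgtp2 (chr11:49057194-49064206) are on the minus strand of chromosome 11, and Igtp (chr11:58199556-58207591) and Irgm2 (chr11:58199618-58222782) overlap on its plus strand. The sources used here name no build for the table, and for 9 of the 10 genes, all but Iigp1, its positions equal those of GENCODE M21 on GRCm38. Igtp and Irgm2 share 162 exonic bases, 8.01% of the 2022 bases of Igtp, so some reads could be counted for either. Tgtp2 has a near-identical copy, Tgtp1, and the sources used here do not say how reads were divided between the copies, which makes its level uncertain. Cxcl10 lies within Art3 and Tgtp2 within Olfr56, each on the opposite strand. Art3 did not exceed 5.30 FPKM and Olfr56 did not exceed 2.56 FPKM in any library. Whether the reads were counted by strand is not given either.

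Promoter stretches are shown because interferon gamma is known to act through GAS and ISRE elements near the start of such genes. RefSeq windows on GRCm38.p6 from 250 bases before to 50 bases after the transcription start were found for 9 of the 10 genes, all but Iigp1, with a second start and window for Gbp3. They were searched on both strands for the GAS pattern TTCNNNGAA, which reads the same on both strands, and for the ISRE core GAAANNGAAA, with overlapping matches allowed. An ISRE core was found for 8 of the 9 genes in at least 1 window, against 3.99% of 27025 genes in the same table, and a GAS for 4 of 9, against 9.55% of genes. Both were found for 4 of 9, Gbp7, Igtp, Irgm2 and Tgtp2, against 0.540% of genes. In Igtp, Irgm2 and Tgtp2 the GAS lies directly before the ISRE core, in Igtp from position -45 to -37 and from -34 to -25, in Irgm2 from -75 to -67 and from -64 to -55, and in Tgtp2 from -81 to -73 and from -70 to -61, counted from the RefSeq start. These stretches, 5′ to 3′ on the strand of the gene with GAS and ISRE matches in capitals, are Igtp at chr11:58199491-58199551 (plus strand), Irgm2 at chr11:58214882-58214942 (plus strand) and Tgtp2 at chr11:49064253-49064313 (minus strand).
Igtp: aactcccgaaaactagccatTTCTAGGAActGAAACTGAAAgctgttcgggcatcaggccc
Irgm2: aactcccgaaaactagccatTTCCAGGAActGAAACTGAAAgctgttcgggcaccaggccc
Tgtp2: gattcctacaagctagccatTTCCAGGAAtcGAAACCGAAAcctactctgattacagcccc

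In Gbp7, 2 GAS matches stand before the ISRE core, and the stretch is at chr3:142530210-142530312 (plus strand). In Gbp3 and Irgm1, 2 overlapping ISRE cores form a single run, in the stretches of Gbp3 at chr3:142559979-142560034 (plus strand) and Irgm1 at chr11:48871415-48871470 (minus strand). Gbp2 and Cxcl10 each hold 1 ISRE core and no GAS, in the stretches of Gbp2 at chr3:142620584-142620633 (plus strand) and Cxcl10 at chr5:92349073-92349122 (minus strand).
Gbp7: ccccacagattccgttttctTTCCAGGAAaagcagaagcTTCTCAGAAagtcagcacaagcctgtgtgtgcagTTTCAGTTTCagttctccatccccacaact
Gbp3: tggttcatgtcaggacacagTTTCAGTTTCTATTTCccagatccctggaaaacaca
Irgm1: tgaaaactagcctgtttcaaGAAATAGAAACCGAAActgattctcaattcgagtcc
Gbp2: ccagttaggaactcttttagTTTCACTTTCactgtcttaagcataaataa
Cxcl10: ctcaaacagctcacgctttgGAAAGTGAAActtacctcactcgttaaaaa

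The Cxcl9 window and the second Gbp3 window held neither pattern, which says only that these letters do not occur there. The Igtp and Irgm2 windows had the longest alignment of all pairs, with 244 of 265 aligned bases identical (92.1%) and a shared run of 61 bases. The RefSeq start of Irgm2 lies inside the span that the table gives for this gene, beyond the end of Igtp. Outside that pair, the longest shared run was 17 bases, between Irgm2 and Tgtp2.

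**Figure D1:**
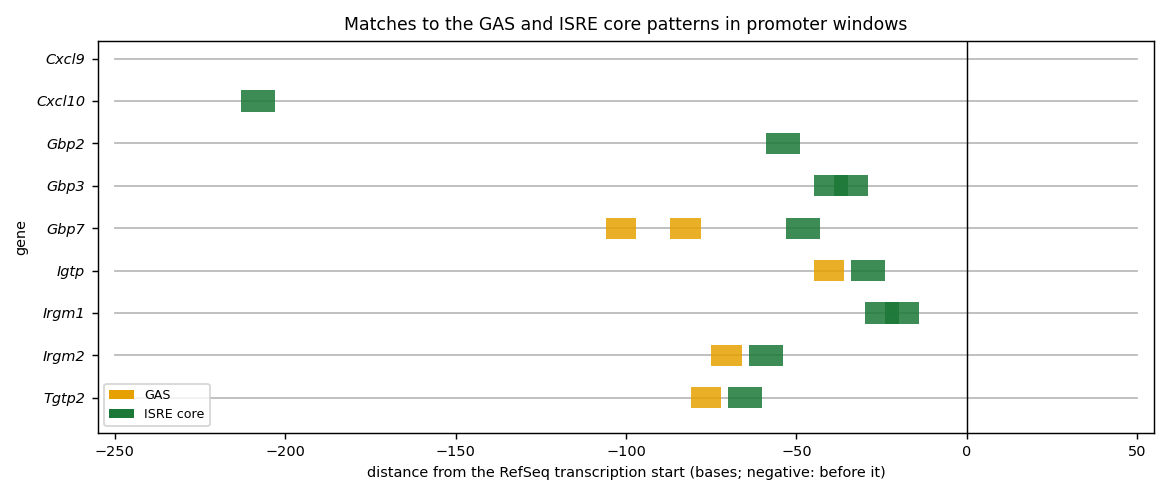
Positions of the GAS pattern (yellow) and of the ISRE core (green) in the promoter windows of 9 genes (for Gbp3 the window that holds matches), in bases from the RefSeq transcription start, with overlapping matches drawn over each other. Igtp, Irgm2 and Tgtp2 each show a GAS directly before an ISRE core, and the Cxcl9 line is empty.

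Between 17803889 and 22414949 reads per library could be recovered from the FPKM values, and the 10 genes rested on 71 to 5643 reads each. The labels do not say whether the libraries come from separate animals, so p-values measure the spread between these samples, which may be technical. None of the epithelial markers Krt20, Vil1, Cdx2 and Fabp2 was at 0 in any library, which is only a weak check of the tissue label. The library IR+LYC 2 stood apart from its group and lay nearer to the controls. The summed level of 7 smooth muscle genes was 544 FPKM there and 1910 and 2869 FPKM in the other 2 IR+LYC libraries, against 1331 to 1790 FPKM in IR and 618 to 812 FPKM in control. The 8 B and plasma cell genes summed to 876 FPKM in IR 1, 394 FPKM in IR 2 and 1157 FPKM in IR 3, against 3731 to 5542 FPKM in control, so IR 1 lay with its group by these genes. Over all genes tested, limma, a linear model with moderated variances, called 3 genes in IR+LYC against control, and 4120 without that library. In IR against control it called 3, and 98 without that library, which enters through the shared estimate of the spread. None of the 10 genes was among these calls, with or without it.

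Both chemokines were high in 2 of the 3 IR libraries. Cxcl9 was at 4.72, 6.14 and 7.37 FPKM in IR+LYC 1, 2 and 3, at 5.13, 29.0 and 22.6 FPKM in IR 1, 2 and 3, and at 8.22, 6.77 and 5.06 FPKM in control 1, 2 and 3. Cxcl10, with values in the same order of replicates here and below, was at 2.32, 2.07 and 4.59 FPKM in IR+LYC, at 1.78, 12.1 and 8.53 FPKM in IR, and at 3.36, 3.44 and 2.99 FPKM in control. For both genes IR 2 and IR 3 lay above the other 7 libraries, while IR 1 lay below 2 of the 3 controls for Cxcl9 and below every control for Cxcl10, so IR overlapped with both other groups. The ratio of Cxcl9 to Cxcl10 within a library stayed between 1.61 and 2.97. Cxcl9, induced above all by interferon gamma, averaged 6.07 ± 1.33 FPKM in IR+LYC, 18.9 ± 12.4 FPKM in IR and 6.68 ± 1.58 FPKM in control (SD, n = 3). Cxcl10, which type I interferons also induce, averaged 2.995 ± 1.39 FPKM in IR+LYC, 7.46 ± 5.22 FPKM in IR and 3.26 ± 0.240 FPKM in control.

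The guanylate binding proteins are large GTPases that assemble on vacuoles of parasites and bacteria and help to open them. Gbp2 was at 19.6, 16.5 and 21.5 FPKM in IR+LYC, at 15.9, 72.8 and 38.0 FPKM in IR, and at 20.99, 18.4 and 21.6 FPKM in control. Gbp3 was at 9.34, 7.32 and 8.95 FPKM in IR+LYC, at 6.89, 28.1 and 13.8 FPKM in IR, and at 8.91, 8.05 and 6.72 FPKM in control. Both were highest in IR 2 and next in IR 3, and the other 7 libraries lay within 15.9 to 21.6 FPKM for Gbp2 and 6.72 to 9.34 FPKM for Gbp3. Gbp7, linked in mice to the assembly of the NADPH oxidase on such vacuoles, was at 3.8, 5.95 and 4.02 FPKM in IR+LYC, at 4.46, 12.2 and 8.39 FPKM in IR, and at 6.68, 4.72 and 5.19 FPKM in control. It showed the same order in IR with a narrower span, the highest library being 3.20 times the lowest, against 4.57 times for Gbp2 and 4.19 times for Gbp3.

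The immunity related GTPases fall into effectors, which load onto vacuoles and break them, and regulators, which sit on the membranes of the cell itself and keep the effectors inactive there. Of the effectors, Iigp1, a gene of chromosome 18, was at 10.9, 11.3 and 15.0 FPKM in IR+LYC, at 9.68, 67.6 and 29.9 FPKM in IR, and at 17.7, 11.5 and 11.1 FPKM in control. Tgtp2 was at 4.29, 4.65 and 5.02 FPKM in IR+LYC, at 2.6, 15.97 and 8.76 FPKM in IR, and at 5.86, 3.65 and 3.98 FPKM in control. In both, IR 2 and IR 3 were the highest libraries and IR 1 was the lowest. Iigp1 in IR 2 was 5.03 times the control mean, the highest such ratio of the 10 genes.

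Of the regulators, Irgm1 was at 10.6, 16.2 and 13.4 FPKM in IR+LYC, at 8.25, 43.2 and 25.8 FPKM in IR, and at 18.1, 11.3 and 13.1 FPKM in control. It followed the effectors, with IR 2 and IR 3 highest and IR 1 lowest. Igtp, also known as Irgm3, was at 15.0, 73.2 and 23.0 FPKM in IR+LYC, at 12.3, 80.0 and 56.0 FPKM in IR, and at 63.5, 22.6 and 29.9 FPKM in control. Irgm2 was at 12.6, 29.8 and 14.3 FPKM in IR+LYC, at 10.8, 46.0 and 31.9 FPKM in IR, and at 34.9, 15.1 and 20.9 FPKM in control. In these overlapping genes IR+LYC 2 and control 1 were high as well as IR 2 and IR 3. IR 3 was below IR+LYC 2 for Igtp and below control 1 for both, while in the other 8 genes it was second to IR 2. The difference was one of degree, since in Irgm1 and Gbp7 control 1 and IR+LYC 2 came next after IR 2 and IR 3. In the controls Igtp had the highest mean level of the 10 genes, 38.6 ± 21.8 FPKM, followed by Irgm2 at 23.7 ± 10.2 and Gbp2 at 20.4 ± 1.69 FPKM (SD, n = 3). The ranges of these neighbours in the order overlapped. Cxcl10 was the lowest at 3.26 ± 0.240 FPKM and lay below every control value of the next lowest, Tgtp2 at 4.50 ± 1.2 FPKM.

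**Figure D2:**
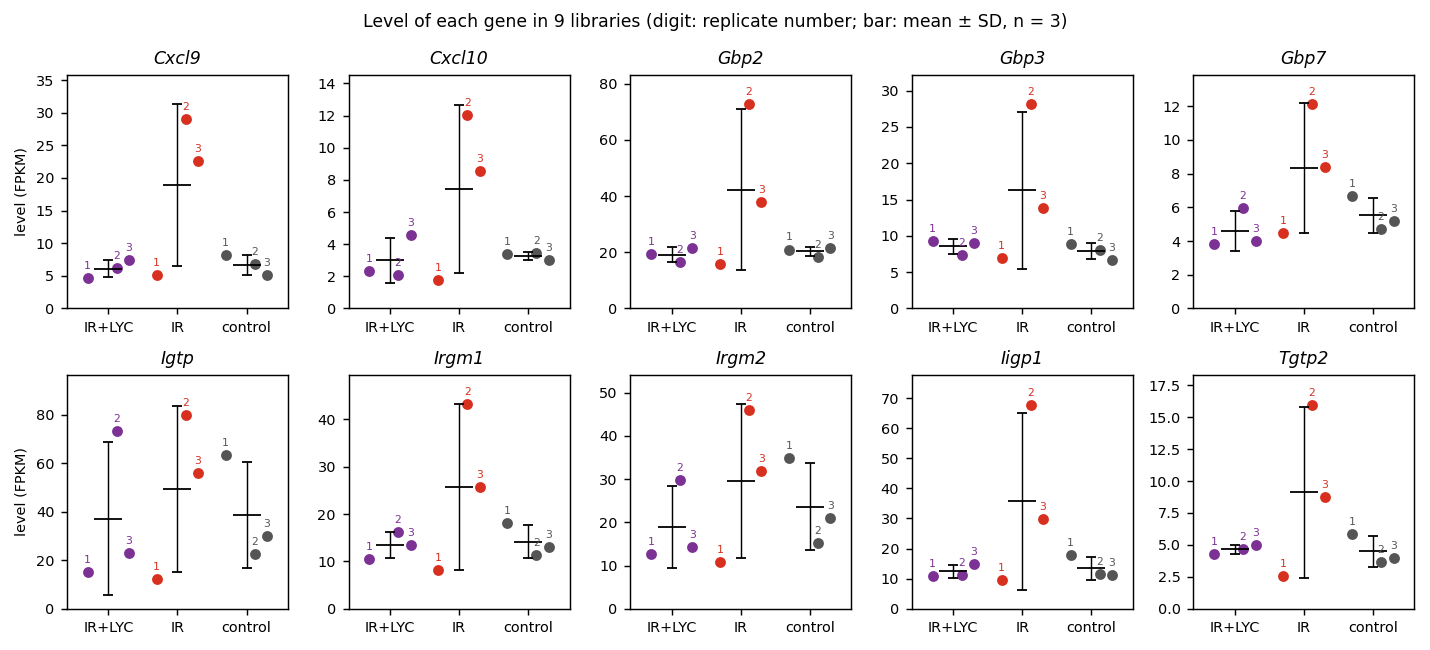
Level of each of the 10 genes in FPKM (vertical axis, from 0) in the 9 libraries, by group, with the replicate number above each point and the mean ± SD (n = 3) in black. IR 2 is the highest point in all 10 panels, and IR 1 lies among or below the IR+LYC and control points, while in Igtp and Irgm2 the points of IR+LYC 2 and control 1 are also high.

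The ratio of Igtp to Gbp2 within a library made this visible. It was 4.45 in IR+LYC 2 and 3.02 in control 1, against 0.769 to 1.47 in the other 7 libraries. The ratio of Irgm2 to Irgm1 was 1.84 in IR+LYC 2 and 1.92 in control 1, against 1.07 to 1.59 elsewhere. By contrast, the ratio of Iigp1 to Gbp2 was 0.687 in IR+LYC 2 and 0.845 in control 1, within the 0.513 to 0.929 of the other libraries. Markers of gut segment were chosen after these values had been seen. Of these, Fabp6 and Gata4 were at one end of their range in the same 2 libraries. Both were at the other end in IR 2, the library with the highest level of all 10 genes. Fabp6, the ileal bile acid binding protein, had 2 reads in IR+LYC 2 and 5 in control 1, against 16826 reads in IR 2 and 755 to 4137 reads in the other 6. Gata4, a transcription factor of the proximal small intestine, was at 33.7 FPKM in IR+LYC 2 and 37.0 FPKM in control 1, against 9.19 FPKM in IR 2, its lowest library, and 10.6 to 26.2 FPKM in the other 6. Slc10a2, the ileal bile acid transporter, shared this order only in part. It was at 1.31 FPKM in IR+LYC 2, its lowest library, but IR+LYC 1 and 3 were also low, at 1.96 and 1.37 FPKM. In control 1 it was at 2.52 FPKM, against 20.3 and 21.7 FPKM in control 2 and 3. In IR 2 it was at 11.2 FPKM, below IR 1, control 2 and control 3. The part of the gut segment in the levels of Igtp and Irgm2, or in the levels of the 10 genes in IR 2, was not tested.

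**Figure D3:**
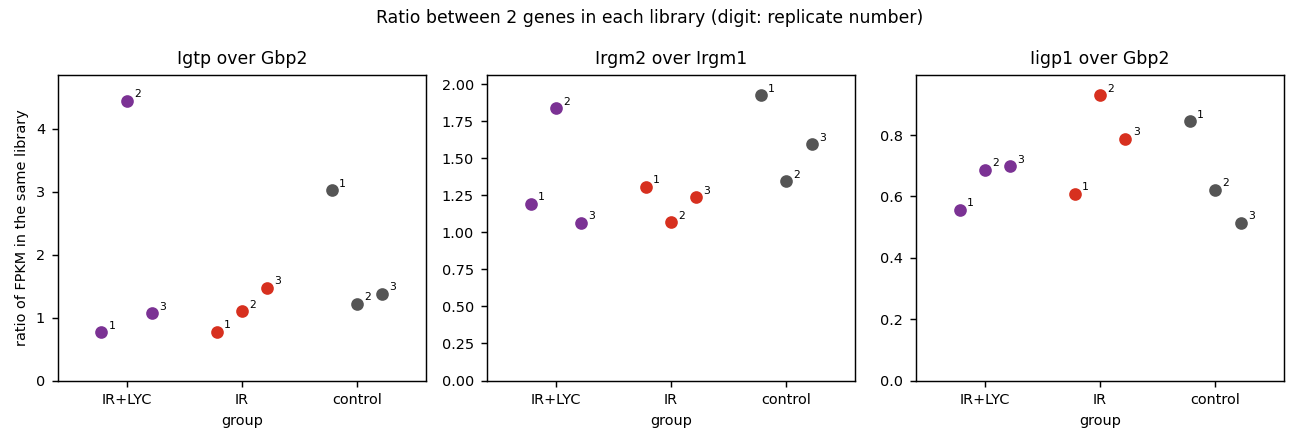
Ratio of FPKM between 2 genes in the same library (vertical axis, from 0), by group, with the replicate number beside each point. Igtp over Gbp2 stands at 4.45 in IR+LYC 2 and at 3.02 in control 1, against 0.769 to 1.47 elsewhere, while Iigp1 over Gbp2 does not set these libraries apart.

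Seen by library, the IR group held both ends of the range. IR 2 was the highest of the 9 libraries for 10 of the 10 genes, which was so for 11.3% of all genes tested. It lay above every control for all 10, and IR 3 did so for 8, against 37.0% and 27.9% of all genes. IR 1 lay below every control for 8 genes, against 30.8% of all genes. It was the lowest of the 9 for 7 genes, a count for which no share over all genes was computed. The median of the 10 ratios to the control mean was 0.651 in IR 1, 3.56 in IR 2 and 1.84 in IR 3. In the IR+LYC libraries this median was 0.730, 0.980 and 1.079.

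The comparison of IR with control addresses the response to irradiation. The mean was higher in IR for 10 of 10 genes, with ratios of the means from 1.25 for Irgm2 to 2.83 for Cxcl9 and a median of 2.04. No gene separated the groups, since IR 1 was above all controls for none of them, whereas 14.1% of all genes were higher in IR without overlap. On log2(FPKM + 1), which understates the change of low genes, the differences ran from 0.13 for Igtp to 1.11 for Cxcl9, and their median was 0.68, against -0.01 over all genes tested. With limma and p-values adjusted by Benjamini and Hochberg over all 15391 genes, 0 of the 10 passed 0.05, against a background of 0.0195%. At an unadjusted p under 0.05 it was also 0 of 10, against 8.34% of all genes, and limma-voom on the recovered reads called 0. For Cxcl9 the difference was 1.11 (SE 0.53, 95% confidence interval from -0.11 to 2.33) with an adjusted p of 0.615 by limma. Iigp1 followed with 1.0 (SE 0.58, interval from -0.32 to 2.32) and an adjusted p of 0.637. For Igtp, for which control 1 was also high, the interval ran from -1.69 to 1.94.

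The size of this difference depended on single libraries. Without IR 1 the median was 1.24, and 8 of the 10 genes had an unadjusted p under 0.05, against 6.95% of all genes, though 0 passed the adjusted threshold. Without IR 2 the median was 0.21, and 8 of 10 genes were still higher in IR. Igtp and Irgm2 were then lower in IR, at -0.39 and -0.25. Without IR 3 the median was 0.52. With libraries scaled to their recovered totals in place of the authors' scaling, the median over all genes stood at 0.14 and that of the 10 genes at 0.85.

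The comparison of IR+LYC with IR asks whether lycopene changed what irradiation did. It shares the IR libraries with the comparison above, so a high IR 2 enters both with opposite sign. The mean was lower in IR+LYC for 10 of 10 genes, with ratios from 0.321 for Cxcl9 to 0.751 for Igtp and a median of 0.516. The groups overlapped for all 10 genes, whereas 3.2% of all genes were lower in IR+LYC without overlap. The median log2 difference was -0.67, against -0.01 over all genes. By limma, 0 of 10 genes passed the adjusted threshold, as did 0 genes in all, a background of 0%. At an unadjusted p under 0.05 there was 1 of 10, Cxcl9, against 4.26% of all genes, and limma-voom again called 0. The Cxcl9 difference was -1.22 (SE 0.53, 95% confidence interval from -2.44 to -0.0024), with an unadjusted p of 0.0496 and an adjusted p of 0.994 by limma. It was lower in all 3 IR+LYC libraries than in IR 2 and IR 3, but IR 1 lay below IR+LYC 2 and 3. Iigp1 differed by -1.09 (SE 0.58, interval from -2.41 to 0.23) and Gbp7 by -0.67 (SE 0.31, interval from -1.37 to 0.03). Without IR 1 the median difference was -1.23 and 9 of 10 genes had an unadjusted p under 0.05, against 3.72% of all genes. Without IR 2 it was -0.27, and Igtp was then higher in IR+LYC by 0.15. Leaving out IR+LYC 2, the library that stood apart, gave a median of -0.81.

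Between IR+LYC and control the means of the 10 genes were close, with ratios of the means from 0.799 for Irgm2 to 1.081 for Gbp3. The log2 differences ran from -0.33 for Irgm2 to 0.10 for Gbp3, with a median of -0.10 and 2 of 10 genes higher in IR+LYC, against a median of -0.01 over all genes. By limma, 0 of 10 passed the adjusted threshold, against 0.0195%, and 0 of 10 had an unadjusted p under 0.05, against 14.1% of all genes. By limma-voom it was also 0. No gene separated the groups, as 17.5% of all genes did in either direction. The 95% confidence intervals ran from -1.34 to 1.1 for Cxcl9 and from -2.06 to 1.58 for Igtp. The direction here depended on the scaling: with libraries scaled to recovered totals, 7 of 10 genes were higher in IR+LYC, with a median of 0.11, while the median over all genes stood at 0.17. Without control 1 the median was 0.07, with 6 of 10 genes higher, and without IR+LYC 2 it was -0.08, with 4 of 10 higher.

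**Figure D4:**
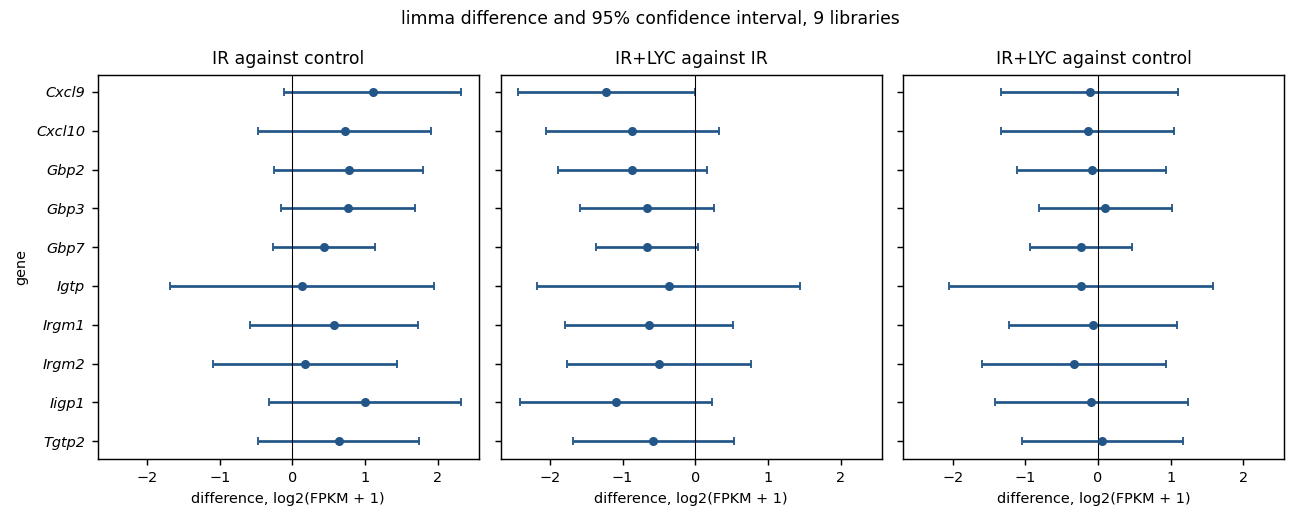
Difference on log2(FPKM + 1) for each of the 10 genes (point) with its 95% confidence interval (line) from the limma model of all 9 libraries, for IR against control, IR+LYC against IR and IR+LYC against control. The points lie above 0 in the left panel and below 0 in the middle panel for all 10 genes, and of the intervals drawn only that of Cxcl9 in IR+LYC against IR excludes 0.

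The ligand itself was close to the limit of detection. Ifng was at 0.027, 0.253 and 0.075 FPKM in IR+LYC, at 0, 0.206 and 0.505 FPKM in IR, and at 0.483, 0.220 and 0.095 FPKM in control, and did not enter the tests. These values came from 0 to 12 reads, and the 0 of IR 1 allowed up to 3 reads, or 0.118 FPKM, by counting error alone. Its highest values were in IR 3 and control 1, from 12 and 11 reads, against 6 reads in IR 2 and 0 in IR 1. Whether it followed the chemokines and GTPases across libraries was not tested. Ifng and the cytokine genes Il12a, Il12b and Il27 were below the filter, leaving 3 of 7 genes of ligand and inducers tested. Il18, an epithelial cytokine that promotes interferon gamma production, was at 6.48, 82.4 and 9.09 FPKM in IR+LYC, at 33.8, 10.0 and 22.8 FPKM in IR, and at 38.8, 27.0 and 23.3 FPKM in control. IR 2 had the lowest Il18 of its group, and IR+LYC 2 the highest of all libraries.

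The receptor chain Ifngr1 differed little between libraries, at 49.96 to 53.4 FPKM in IR+LYC, 52.6 to 57.6 FPKM in IR and 45.5 to 57.0 FPKM in control. Irf1 was at 26.1, 64.5 and 39.8 FPKM in IR+LYC, at 40.7, 52.6 and 62.9 FPKM in IR, and at 72.4, 54.8 and 70.5 FPKM in control. It did not share the order of the GTPases, and control 1 was its highest library. Cxcr3, the receptor of both chemokines, stayed at 1.86 to 2.33 FPKM in IR+LYC, 1.53 to 2.26 FPKM in IR and 1.89 to 2.31 FPKM in control. The feedback inhibitor Socs1 was at 0.998, 1.40 and 1.75 FPKM in IR+LYC, at 0.770, 3.73 and 3.28 FPKM in IR, and at 2.03, 2.25 and 2.13 FPKM in control, with IR 2 highest and IR 1 lowest, as for most of the GTPases. Of 10 receptor and signal genes, 4 were higher in IR than in control, with a median log2 difference of -0.06, but 7 were, with a median of 0.13, once libraries were scaled to recovered totals. Of 5 feedback genes, 3 were higher in IR with a median of 0.07, and 4 under that scaling. By limma 0 genes of both lists passed the adjusted threshold in any comparison, and 0 had an unadjusted p under 0.05.

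Other interferon genes showed the same libraries at the top, without a call. Of 12 further GTPases tested, 11 were higher in IR than in control, with a median log2 difference of 0.32, and IR 2 was the highest library for 11. All 12 were lower in IR+LYC than in IR, with a median of -0.50. Gbp6 was at 0.606, 0.805 and 0.995 FPKM in IR+LYC, at 0.581, 3.86 and 1.83 FPKM in IR, and at 0.974, 0.833 and 0.976 FPKM in control. Gbp2b, the gene with the smallest p of the list in IR+LYC against IR, was at 3.55, 4.91 and 4.99 FPKM in IR+LYC, at 5.04, 6.49 and 7.52 FPKM in IR, and at 7.07, 6.62 and 6.63 FPKM in control. It was lower in IR+LYC than in IR by -0.42 without overlap, and did not pass the adjusted threshold. Of 16 genes of the type I interferon response, 13 were higher in IR than in control, with a median of 0.47, and all 16 were lower in IR+LYC than in IR, with a median of -0.86. Ifi44 was at 1.11, 1.75 and 1.94 FPKM in IR+LYC, at 0.855, 16.5 and 6.01 FPKM in IR, and at 1.52, 1.78 and 0.837 FPKM in control. IR 2 was the highest library for 13 of the 16 genes.

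Genes of antigen processing, which interferon gamma also induces, were evenly divided in IR on the deposited scale. Of 12, 6 were higher in IR than in control, with a median log2 difference of 0.02, but 11 were, with a median of 0.22, when scaled to recovered totals. All 12 were lower in IR+LYC than in IR, with a median of -0.37. They were also lower in IR+LYC than in control, with a median of -0.36, except that under that scaling 4 were higher. Psme2, a proteasome activator subunit, was at 49.97, 122 and 73.6 FPKM in IR+LYC, at 96.4, 103 and 127 FPKM in IR, and at 119, 110 and 88.3 FPKM in control. Of 15 other genes induced by interferon gamma, 12 were higher in IR than in control, with a median of 0.39. For these genes, the further GTPases and the type I genes, the majority was higher in IR than in control, and lower in IR+LYC than in IR, under the other scalings too. Nos2, the inducible nitric oxide synthase, stood apart from most of them, at 2.70, 6.35 and 5.31 FPKM in IR+LYC, at 16.7, 6.67 and 10.6 FPKM in IR, and at 12.4, 23.9 and 21.9 FPKM in control. By limma 0 genes of these 4 lists passed the adjusted threshold in any comparison. At an unadjusted p under 0.05 in IR against control it was 0 of the further GTPases, of the type I genes and of antigen processing, and 2 of the 15 others, Fcgr1 and C4b, against 8.34% of all genes. In IR+LYC against IR it was 1 of 12 further GTPases, Gbp2b, 1 of 16 type I genes, Cmpk2, 0 of 12 antigen processing genes and 2 of 15 others, Nos2 and Batf2, against 4.26% of all genes. In IR+LYC against control it was 1 of 12 further GTPases, 2 of 16 type I genes, 0 of 12 antigen processing genes and 3 of 15 others, against 14.1% of all genes.

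**Figure D5:**
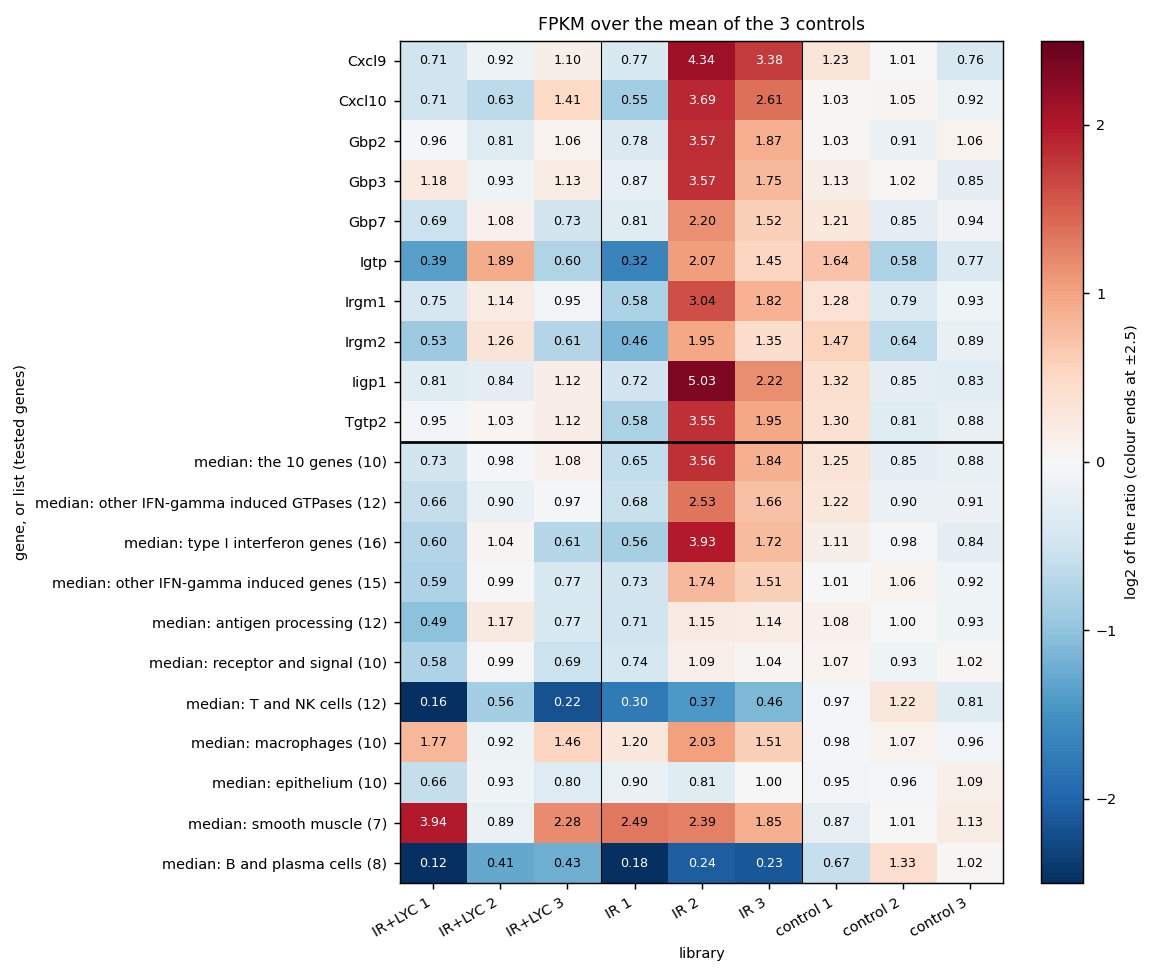
FPKM of each of the 10 genes over the mean of the 3 controls, by library (upper rows), and the median of that ratio over the tested genes of each list (lower rows, number of genes in brackets), coloured by the log2 of the ratio. The IR 2 column is high for the 10 genes (median 3.56) and for type I interferon genes (3.93), but not for T and NK cells (0.37).

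Markers of cell types that make or answer interferon gamma were measured in the same libraries. In bulk tissue, fewer cells of a type and less RNA per cell cannot be told apart. All 12 T and NK cell genes tested were lower in IR than in control (11 when scaled to recovered totals), with a median log2 difference of -1.04, and 8 had an unadjusted p under 0.05, against 8.34% of all genes, but 0 passed the adjusted threshold by limma. The summed level of the 14 genes listed was 41.2 to 264 FPKM in IR+LYC, 98.9 to 188 FPKM in IR and 400 to 622 FPKM in control. Within IR the sum was lowest in IR 2. By the median ratio to the control mean over the 12 genes tested, IR 1 was lowest at 0.295, against 0.367 in IR 2 and 0.461 in IR 3. Ccl5, a chemokine of cytotoxic lymphocytes, was at 3.39, 33.0 and 7.08 FPKM in IR+LYC, at 9.43, 8.38 and 13.6 FPKM in IR, and at 96.8, 139 and 79.6 FPKM in control. None of the 14 genes was at 0 in all libraries.

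Macrophage genes moved with the chemokines and GTPases within IR. Their summed level over 10 genes was 806, 358 and 706 FPKM in IR+LYC, 520, 927 and 643 FPKM in IR, and 361, 444 and 390 FPKM in control, so IR 2 was highest of all and IR 1 lowest of its group. Of the 10, 8 were higher in IR than in control, with a median log2 difference of 0.58, and 5 had an unadjusted p under 0.05, against 8.34% of all genes, with 0 passing the adjusted threshold by limma. Cd68, found in macrophage lysosomes, was at 18.7, 7.68 and 14.7 FPKM in IR+LYC, at 13.5, 22.8 and 18.0 FPKM in IR, and at 8.55, 9.25 and 7.97 FPKM in control. IR+LYC 1 had the second highest macrophage sum, whereas the 10 chemokine and GTPase genes summed to 93.2 FPKM there, against 407 FPKM in IR 2. The epithelial markers of 10 genes summed to 4507 to 12393 FPKM in IR+LYC, 6948 to 16539 FPKM in IR and 16189 to 17310 FPKM in control, and IR 2 was the lowest IR library. The part of cell composition in the levels of the 10 genes was not tested.

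The genes most like the 10 were found by Spearman correlation over the 9 libraries with the mean z score of the 10, which has these same libraries and their depth in common. Genes without a symbol, with clone names, or with Gm or Rik names were left out of the ranking. Some of the further GTPases have such names. Of the genes ranked, Ifi47, a further immunity related GTPase, came first with a coefficient of 0.95. It was at 13.9, 31.9 and 21.7 FPKM in IR+LYC, at 14.6, 60.04 and 40.1 FPKM in IR, and at 31.2, 21.4 and 28.3 FPKM in control. Rtp4, Serpina3f, Epsti1 and Ido1 followed at 0.93, and Tgtp1, Oas2, Ogfr, Tmem184b and Psmb9 at 0.92. Ido1, which degrades tryptophan, was at 1.51, 16.9 and 2.26 FPKM in IR+LYC, at 1.48, 27.1 and 3.77 FPKM in IR, and at 2.34, 2.03 and 1.90 FPKM in control. Its IR+LYC 2 library was thus high, as for Igtp. Tgtp1, the copy of Tgtp2, was at 0.949, 1.37 and 2.38 FPKM in IR+LYC, at 0.587, 8.92 and 3.59 FPKM in IR, and at 1.83, 0.978 and 1.48 FPKM in control, with the same libraries high and low as Tgtp2. Among the 10 genes themselves the coefficient ran from 0.58 for Gbp3 to 1.0 for Irgm1, but each is part of the mean it was compared with, which raises it.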

How the data were processed

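RNA sequencing libraries of mouse intestine, 3 each of IR+LYC, IR and control, were grouped by the labels. Per the submitters' processing notes, fastp and HISAT2 2.0.5 were used. Aligner settings, counting tool and genome build are not given in the sources used here. The authors deposited FPKM values for 54532 genes, which are not log2 values, and 0 sample columns were left unmapped. Dividing them by the value of 1 read recovered whole read numbers per gene: 165638 of 165638 values under 1000 reads (100%) were whole within 0.01 read. Recovered totals were 17803889 to 22414949 reads, and the divisor in the deposited FPKM was 0.854 to 1.26 times as large, which shows a further scaling step by the authors.

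Differences were tested with limma 3.58.1 in R 4.3.3 on log2(FPKM + 1), computed here from the deposited FPKM, in 1 model of the 3 groups with a mean-variance trend and 8.18 total degrees of freedom. A gene entered if 3 or more libraries reached 0.5 FPKM, which left 15391, and the Benjamini-Hochberg adjustment ran over all of them, with a threshold of 0.05. The procedure was run on simulated reads with the same fixed dispersion (spread between libraries beyond counting error) for all genes. That spread was narrower than the spread of the 10 genes in IR. The run therefore does not show how often changes in these genes would be called. An exact permutation test of 3 against 3 libraries cannot go below 0.1 and was not used. The alternatives were a pseudocount of 0.1, no filter or one at 1 FPKM, median-ratio scaling, only the 2 groups compared, no trend, a replicate block, limma-voom on recovered reads (genes with at least 10 reads), and each library left out. Scaling to recovered totals was added after seeing the data.

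The 10 genes and all gene lists (ligand and inducers, receptor and signal, feedback, further GTPases, other interferon gamma genes, antigen processing, type I interferon, T and NK cells, macrophages, epithelium, smooth muscle, B and plasma cells, endothelium) were chosen with earlier results of these data known. Up to 4 genes per list were named, those with the smallest p in IR against control or IR+LYC against IR, not all of which are printed, besides Ifng, Ifngr1, Ifngr2, Irf1, Cxcr3 and Socs1 and the 10 genes most like the set. A further gene named by this rule is not reported here. Fabp6, Gata4 and Slc10a2, and genes that overlap one of the 10, fall outside this rule. Promoters are from RefSeq on GRCm38.p6. Replicate numbers shared by the labels were not used as pairs in the main model. Correlations of same-numbered deviations ran from -0.65 to 0.38, and those of other pairs from -0.61 to 0.64. These values show no pairing but cannot exclude one. Figures were drawn with matplotlib 3.10.9.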

Additional observations from a re-analysis of the deposited data

How the results depend on the processing

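The count of the 10 genes called by limma stayed at 0 in each of the 3 comparisons under every alternative run, and their adjusted p ran over these alternatives from 0.205 to 1.0 in IR against control, from 0.219 to 1.0 in IR+LYC against IR and from 0.371 to 1.0 in IR+LYC against control. With a replicate block the medians of the 10 genes were 0.68, -0.67 and -0.10, as without it. This was fixed in advance, since every replicate number occurs in every group and the block then leaves the differences unchanged. Over all genes 0 were called in each comparison with the block, against 3, 0 and 3 without it. For IR against control, fitting only the 2 groups compared called 100 genes and dropping the filter called 7. For IR+LYC against control these counts were 1 and 6.

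Of 540 values for single genes, 517 kept their direction and their side of the threshold and 23 reversed, none of them a call. Many of these values could not reverse. Both changes of the filter, only the 2 groups compared, no trend and the replicate block leave the log2 differences as they are. Leaving out a library of the group not compared does the same. Scaling to recovered totals turned the median in IR+LYC against control to 0.11, with Cxcl9 at 0.093, Cxcl10 at 0.045, Gbp2 at 0.14, Irgm1 at 0.16 and Iigp1 at 0.13, while the median over all genes there was 0.17. Leaving out 1 library at a time, differences in IR+LYC against control ran from -0.28 to 0.030 for Cxcl9, from -0.42 to 0.018 for Cxcl10, from -0.17 to 0.013 for Gbp2, from -0.88 to 0.23 for Igtp, from -0.21 to 0.11 for Irgm1, from -0.23 to 0.11 for Iigp1 and from -0.050 to 0.23 for Tgtp2. In IR against control they ran from -0.39 to 0.91 for Igtp and from -0.25 to 0.75 for Irgm2, and in IR+LYC against IR from -1.15 to 0.15 for Igtp. The median of the 10 genes ran from 0.21 to 1.24 in IR against control, from -1.23 to -0.27 in IR+LYC against IR and from -0.20 to 0.07 in IR+LYC against control.

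With 3 libraries a group and an IR group that held both the highest and the lowest levels, intervals of most genes covered changes in both directions. Ifng, at 0 to 0.505 FPKM, was too low to be compared.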

Other observations

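Further cell type lists, which bear on the makeup of the samples, were measured in the same libraries. All 8 genes of B and plasma cells were lower in IR than in control, with a median log2 difference of -1.81, and 6 had an unadjusted p under 0.05, against 8.34% of all genes, while 0 passed the adjusted threshold by limma. Jchain, the joining chain of secreted antibodies, was at 88.7, 503 and 105 FPKM in IR+LYC 1, 2 and 3, at 159, 69.7 and 194 FPKM in IR 1, 2 and 3, and at 1005, 615 and 622 FPKM in control 1, 2 and 3. All 7 smooth muscle genes were higher in IR than in control, with a median of 1.06, and 4 had an unadjusted p under 0.05, against the same 8.34%, with 0 passing the adjusted threshold. Actg2, an actin of visceral smooth muscle, was at 825, 132 and 529 FPKM in IR+LYC, at 516, 430 and 370 FPKM in IR and at 108, 126 and 139 FPKM in control. Of 6 endothelial genes 1 was higher in IR than in control, with a median of -0.11, and of 10 epithelial genes 3 were, with a median of -0.13. When scaled to recovered totals, 4 endothelial genes and 6 epithelial genes were higher in IR, with medians of 0.06 and 0.07.

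The 2 effectors of the immunity related GTPases did not keep a fixed ratio. Tgtp2 over Iigp1 was 0.394, 0.411 and 0.335 in IR+LYC 1, 2 and 3, 0.268, 0.236 and 0.293 in IR 1, 2 and 3, and 0.330, 0.318 and 0.358 in control 1, 2 and 3, so the 3 IR libraries were the lowest of the 9 although IR 1 had the lowest and IR 2 the highest level of both genes. This ratio was looked at after the values had been seen, among 7 such ratios, and was not tested, and reads shared with Tgtp1 make it uncertain.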
